A study of Homo sapiens with 45 samples.

Results

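The SA form of ZHX2 was compared with the empty vector in T47D cells whose own ZHX2 was lowered by an shRNA (shZHX2). The comparison took 6 of the series' 45 libraries, 3 from shZHX2 cells carrying SA and 3 from shZHX2 cells carrying the vector, and it covered every gene of 1 deposited table of raw counts. That table held 9 further libraries, 3 each from shZHX2 cells carrying the WT form, from shZHX2 cells carrying the PA form, and from cells with a control shRNA and the vector (shCtrl). They are used below to place the SA libraries. They were also fitted together with the SA and vector libraries, so they share in the estimate of spread behind every call. T47D is an established luminal, oestrogen receptor-positive breast cancer cell line. All 15 libraries came from cells labelled as kept in hypoxia, so hypoxia is shared by the SA and the vector group. Another 9 T47D libraries, from a separate shRNA experiment of the series, served to follow genes by their response to hypoxia and to shZHX2. They were 3 each from control-shRNA cells in normoxia, control-shRNA cells in hypoxia and shZHX2 cells in hypoxia. The shRNA and the ZHX2 forms were brought in by lentivirus under hygromycin or puromycin selection. The labels do not spell out what SA and PA stand for. The oxygen level, the length of hypoxia, and whether cells with each construct were a pool or a clone were not given in the sources used here. Whether the 3 libraries of a group were separate cultures is not in the labels; the p-values reflect the scatter of these libraries, and that scatter may be technical.

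ZHX2 is a zinc finger and homeobox protein of the nucleus that binds chromatin, and it has been described as a target of the von Hippel-Lindau ubiquitin ligase. That ligase also marks the alpha subunits of hypoxia-inducible factor (HIF) for degradation when oxygen is present. In hypoxia HIF accumulates and binds short response elements near genes of glycolysis, blood vessel growth, pH control and mitochondrial turnover. The series title places ZHX2 among factors that form condensates and remodel chromatin contacts in hypoxia. The comparison asks which transcripts moved in hypoxic cells short of ZHX2 when the SA form was put back.

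The 3 SA libraries held 24425672, 20702353 and 24071336 counts, and the 3 vector libraries 19929402, 22356373 and 24760885. Levels are given as CPM, that is, counts relative to library size after scaling for library composition with edgeR, and no level was divided by gene length. Of 60624 genes, 14302 had enough counts to be tested. A gene is called where edgeR's quasi-likelihood test gave a Benjamini-Hochberg adjusted p under 0.05, and fold changes are log2 values of SA minus the group named. The common biological coefficient of variation between libraries of a group was 3.16% and differences well under 2-fold passed the test. The 16 luminal epithelial markers were all tested, and their summed level was 35080 to 35580 CPM with SA and 33690 to 35110 CPM with the vector. Of 20 markers of basal, fibroblast, endothelial and leukocyte cells, 5 were tested. The sum over all 20 was 26.8 to 29.3 CPM with SA and 41.1 to 42.7 CPM with the vector. Of the 5 tested, COL1A1 alone was called lower, from a mean of 28.1 to 15.5 CPM, and 4 were not called. Summed over the 15 libraries, COL1A1 had 6175 counts and ACTA2 3593, while COL1A2 had 11, COL3A1 14, DCN 22 and LUM 49. The fall of COL1A1 thus stands without matching fibroblast markers at a level that could be tested, and its cause was not tested. In bulk samples such as these, fewer cells of a type and less RNA per cell cannot be told apart.

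ZHX2 (chromosome 8, 122781394 to 122974512, plus strand, GRCh38) checked the labels. Its level was 7.07, 6.24 and 7.27 CPM in the 3 vector libraries and 80.2, 82.9 and 78.4 CPM in the 3 SA libraries. The groups did not overlap, and the log2 fold change was 3.55 (SE 0.058, edgeR adjusted p = 3.45e-61). The shCtrl libraries averaged 32.0 CPM, and every SA library lay above every shCtrl library. WT averaged 72.3 CPM and PA 54.0 CPM, and SA exceeded WT by a log2 difference of 0.15 (edgeR adjusted p = 0.000684) and PA by 0.58 (edgeR adjusted p = 5.72e-21). With offsets for GC content and gene length, ZHX2 differed between SA and WT by 0.05 and was not called (edgeR adjusted p = 0.236). The deposited counts do not separate transcripts of the introduced form from those of the cells' own gene.

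With SA in place of the vector, many genes moved and few moved far. A call was made for 5964 genes, 2892 higher with SA (20.2% of the genes tested) and 3072 lower (21.5%). The median size of a called change was 0.29 on the log2 scale. At least 2-fold changes were called for 62 genes in the higher direction (0.434%) and for 32 in the lower direction (0.224%). Only 6 of these 94 had an average level of at least 1 on the log2 CPM scale, namely ZHX2, RBM3, RGS22, FGB, AOX1 and CBS. For comparison, WT against the same vector libraries called 1018 genes higher (7.12%) and 1129 lower (7.89%) by at least 2-fold, and PA against them called 65 (0.454%) and 71 (0.496%). These 3 comparisons share the vector libraries.

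**Figure D1:**
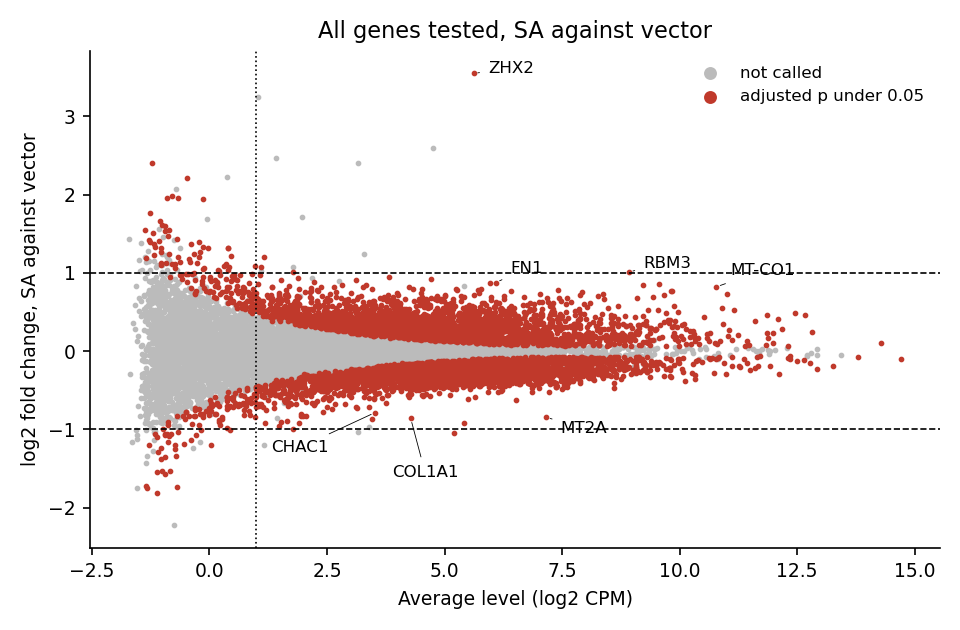
Log2 fold change of SA against vector (y axis) against average level in log2 CPM (x axis) for every gene tested, with called genes in red. Dashed lines mark 2-fold and the dotted line an average of 1 on the log2 CPM scale. ZHX2 stands apart at 3.55, and past the dotted line most called genes lie between the dashed lines.

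On its first component, a principal component analysis of the 15 libraries placed SA next to the vector and PA rather than next to WT. The first component held 53.87% of the variance. SA libraries lay at 23.76 to 24.65 on it, PA at 26.80 to 27.11, and the vector at 33.77 to 34.66, while WT and shCtrl lay at the other end, from -43.38 to -42.12. On the second component (13.96% of the variance) SA lay at -8.89 to -7.94, between the vector (2.51 to 2.98) and WT (-27.4 to -26.57). PA lay at 4.52 to 6.25 on it and shCtrl at 27.04 to 28.02. Counts of calls followed the layout of the first component. SA differed from WT at 4590 genes in the higher direction (32.1%) and 4574 in the lower direction (32%), 838 and 583 of them by at least 2-fold (5.86% and 4.08%). SA differed from PA at 2599 genes in the higher direction (18.2%) and 3222 in the lower direction (22.5%), 54 and 30 of them by at least 2-fold (0.378% and 0.21%). The split between SA and PA depended on the scaling, which with library size alone was 1453 higher and 6082 lower, the median of all genes moving by -0.15. With offsets for GC content and length, the lower calls of SA against PA fell to 1813.

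**Figure D2:**
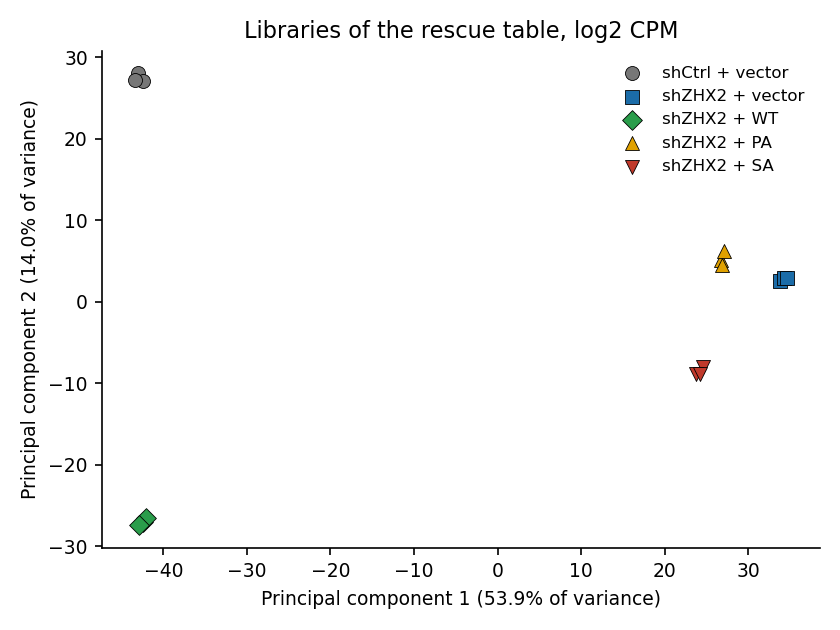
First and second principal components of log2 CPM over the 15 libraries, with the share of variance on each axis and 1 point per library. The SA points lie between 23.76 and 24.65 on the first component, on the side of PA and the vector and away from WT and shCtrl.

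GC content moved with the difference between SA and the vector. Across 14227 genes, Spearman's rho of the log2 fold change with GC content was -0.54, a description over genes that share the same 6 libraries. The genes were divided into 4 groups of near-equal size by GC content. In the group of lowest GC content (27.8% to 42.6%), 1421 were called higher and 82 lower with SA. In the group of highest GC content (57.1% to 74.7%), 70 were called higher and 1903 lower. With offsets that flatten each library on GC content and gene length, 1464 of the 2892 higher calls and 1359 of the 3072 lower calls were kept. The opposite direction was called for 22 of the higher and 92 of the lower calls. Counts against the vector with these offsets stand beside each list below. Genes picked by the naming rule carry their offset value where it loses the call or moves by over 1.5 times. The other single genes named, among them PLOD2, CA9, ENO1 and ISG15, carry no offset value and were not screened this way. The part of GC content in the changes was not tested further. The relation with GC content was also present for WT against vector (-0.38) and PA against vector (-0.48), which share the vector libraries. For SA against PA rho was 0.01 with GC content and -0.45 with gene length.

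**Figure D3:**
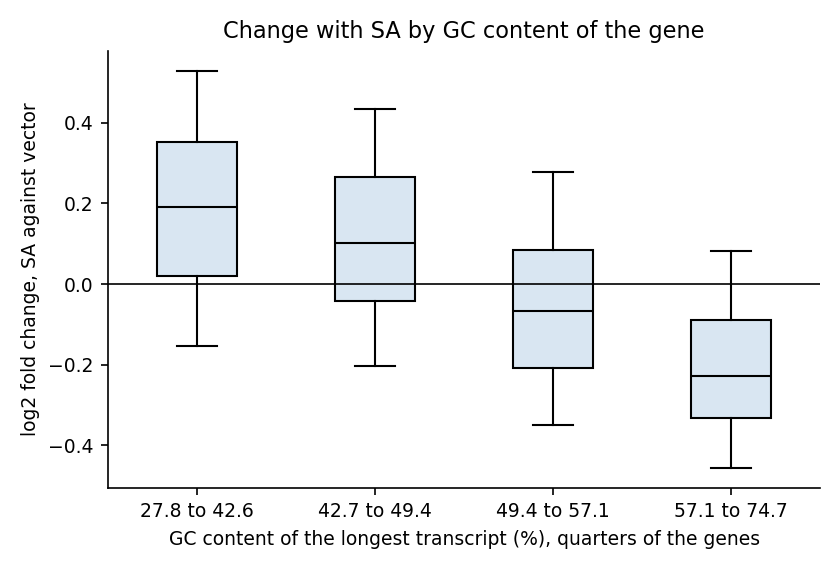
Log2 fold change of SA against vector in 4 groups of genes by GC content (box, quartiles with median; whiskers, 10th to 90th percentile of genes). Medians run from 0.19 in the group of lowest GC content to -0.23 in the group of highest GC content.

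Among 28 HIF-responsive genes, all tested, 16 rose and 2 fell with SA, against 20.2% and 21.5% of all genes tested. The median log2 fold change was 0.12. With the GC and length offsets, 19 were called higher and 3 lower, with a median of 0.11. WT against the same vector libraries gave 26 higher (35.1% of all genes) and 2 lower (34.6%) with a median of 0.81, and PA gave 14 higher (24.7%) and 6 lower (22.9%) with a median of 0.10. Tested directly against WT, SA was lower at 23 of the 28 genes (32% of all genes) and higher at 2 (32.1%), VEGFA and KDM3A.

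The 5' ends of 3 hypoxia genes called higher with SA are shown first. Each is 300 bases from RefSeq (GRCh38.p14), 250 before and 50 after the annotated start, written 5' to 3' on the gene's strand. Capitals mark the core of the hypoxia response element, ACGTG or GCGTG, searched on both strands; overlapping matches run together.
BNIP3, chr10:131981874-131982173, minus strand: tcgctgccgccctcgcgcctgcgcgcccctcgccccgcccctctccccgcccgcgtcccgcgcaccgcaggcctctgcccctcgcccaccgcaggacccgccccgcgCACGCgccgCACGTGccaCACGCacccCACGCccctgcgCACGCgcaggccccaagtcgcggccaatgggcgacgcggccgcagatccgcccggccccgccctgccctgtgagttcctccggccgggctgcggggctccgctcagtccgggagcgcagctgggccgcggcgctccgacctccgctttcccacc
ERO1A, chr14:52695509-52695808, minus strand: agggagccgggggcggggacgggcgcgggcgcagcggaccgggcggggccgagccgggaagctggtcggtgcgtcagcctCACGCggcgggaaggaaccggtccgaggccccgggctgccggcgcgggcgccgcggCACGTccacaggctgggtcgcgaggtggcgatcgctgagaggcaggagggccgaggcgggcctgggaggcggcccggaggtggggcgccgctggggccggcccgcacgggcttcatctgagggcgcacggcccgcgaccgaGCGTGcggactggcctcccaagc
ANGPTL4, chr19:8363905-8364204, plus strand: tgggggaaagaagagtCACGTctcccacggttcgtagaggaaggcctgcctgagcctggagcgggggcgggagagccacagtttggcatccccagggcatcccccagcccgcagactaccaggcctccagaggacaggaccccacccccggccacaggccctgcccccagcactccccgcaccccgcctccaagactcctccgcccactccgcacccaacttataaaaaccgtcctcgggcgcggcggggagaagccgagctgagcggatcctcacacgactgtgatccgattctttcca
The counts of matches were 6 in BNIP3, 3 in ERO1A and 1 in ANGPTL4. A core match lay in 25 of 28 promoters (89.3%) of the list, which belong to 22 of its genes, and in 48.4% of all 35116 promoters of this length. The core is short, and a match describes letters, not binding. These genes were chosen after their values, and the matches of 17 genes that were considered, had been seen. Of those 17 genes, 14 had a promoter in the table and 12 held a match.

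BNIP3, which links mitochondria to the autophagy machinery, had 572, 585 and 573 CPM with the vector and 813, 792 and 812 CPM with SA. Every SA library lay above every vector and PA library (PA mean 584 CPM) and below every shCtrl and WT library (means 999 and 1265 CPM). The log2 fold change against the vector was 0.48 (SE 0.027, edgeR adjusted p = 1.76e-26) and with the GC and length offsets 0.49. Against PA it was 0.46 (edgeR adjusted p = 4.92e-26), and against WT -0.65 (edgeR adjusted p = 7.28e-36).

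ERO1A, an oxidase that forms disulfide bonds in the endoplasmic reticulum, had 461, 457 and 429 CPM with the vector and 633, 653 and 649 CPM with SA. Its log2 fold change was 0.52 (SE 0.028, edgeR adjusted p = 4.58e-27) and with the offsets 0.35. PA libraries averaged 633 CPM and overlapped the SA libraries, and the difference between SA and PA was 0.03 (edgeR adjusted p = 0.453).

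INSIG2, which holds back sterol-driven transcription, had 47.9, 48.4 and 50.5 CPM with the vector and 71.4, 71.9 and 69.3 CPM with SA. Its log2 fold change of 0.53 (SE 0.039, edgeR adjusted p = 5.26e-20) was the highest of the list, and WT averaged 142 CPM. With the offsets the INSIG2 value was 0.27.

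ANGPTL4, a secreted inhibitor of lipoprotein lipase, had 521, 585 and 576 CPM with the vector and 634, 599 and 616 CPM with SA. The groups did not overlap, but the rise was small, 0.14 (SE 0.032, edgeR adjusted p = 0.000446). It was 0.33 with the offsets. WT averaged 1815 CPM and shCtrl 1412 CPM, and SA lay 1.56 below WT on the log2 scale (edgeR adjusted p = 4.78e-37).

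The other hypoxia genes that rose with SA were PLOD2 (collagen lysyl hydroxylase, log2 fold change 0.45), ANKRD37, MXI1 (0.42), ADM (adrenomedullin, 0.31), BNIP3L, FAM162A, P4HA1, VEGFA (the endothelial growth factor, 0.28), CA12, ZNF395, SLC2A1 (the GLUT1 glucose transporter, 0.11) and NDRG1. CA9, the carbonic anhydrase often used to stain hypoxic tumour, and P4HA2 were called lower at -0.07 and -0.08. No member was called lower when vector replicate 1 or SA replicate 3 was left out. The 10 genes with no call were EGLN1, EGLN3, LOX, DDIT4, KDM3A, STC2, PPP1R3C, VLDLR, NDUFA4L2 and SPAG4. LOX, a lysyl oxidase of the matrix, had 10.1 CPM with the vector, 10.6 with SA and 37.0 with WT.

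Glycolytic genes split, 5 of 20 called higher and 9 lower with SA, against 20.2% and 21.5% of all genes. The split turned to 8 higher and 3 lower with the offsets. LDHA (lactate dehydrogenase) had 2890, 2885 and 2899 CPM with the vector and 3769, 3938 and 3817 CPM with SA, a log2 fold change of 0.41 (SE 0.024, edgeR adjusted p = 1.19e-24), with WT at 6653 CPM. PDK1, the kinase that shuts pyruvate dehydrogenase, had 20.2, 19.4 and 19.7 CPM with the vector and 29.8, 31.8 and 28.8 CPM with SA, a change of 0.61 (SE 0.060, edgeR adjusted p = 3.39e-14). Both rises held with the offsets, at 0.25 and 0.48. PGK1, phosphoglycerate kinase, rose by 0.28 (0.16 with the offsets), and its SA mean of 5483 CPM was above those of WT (4464 CPM) and shCtrl (4888 CPM). ENO1 (enolase) was lower with SA by -0.12, with 5055 CPM for the vector and 4651 CPM for SA.

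**Figure D4:**
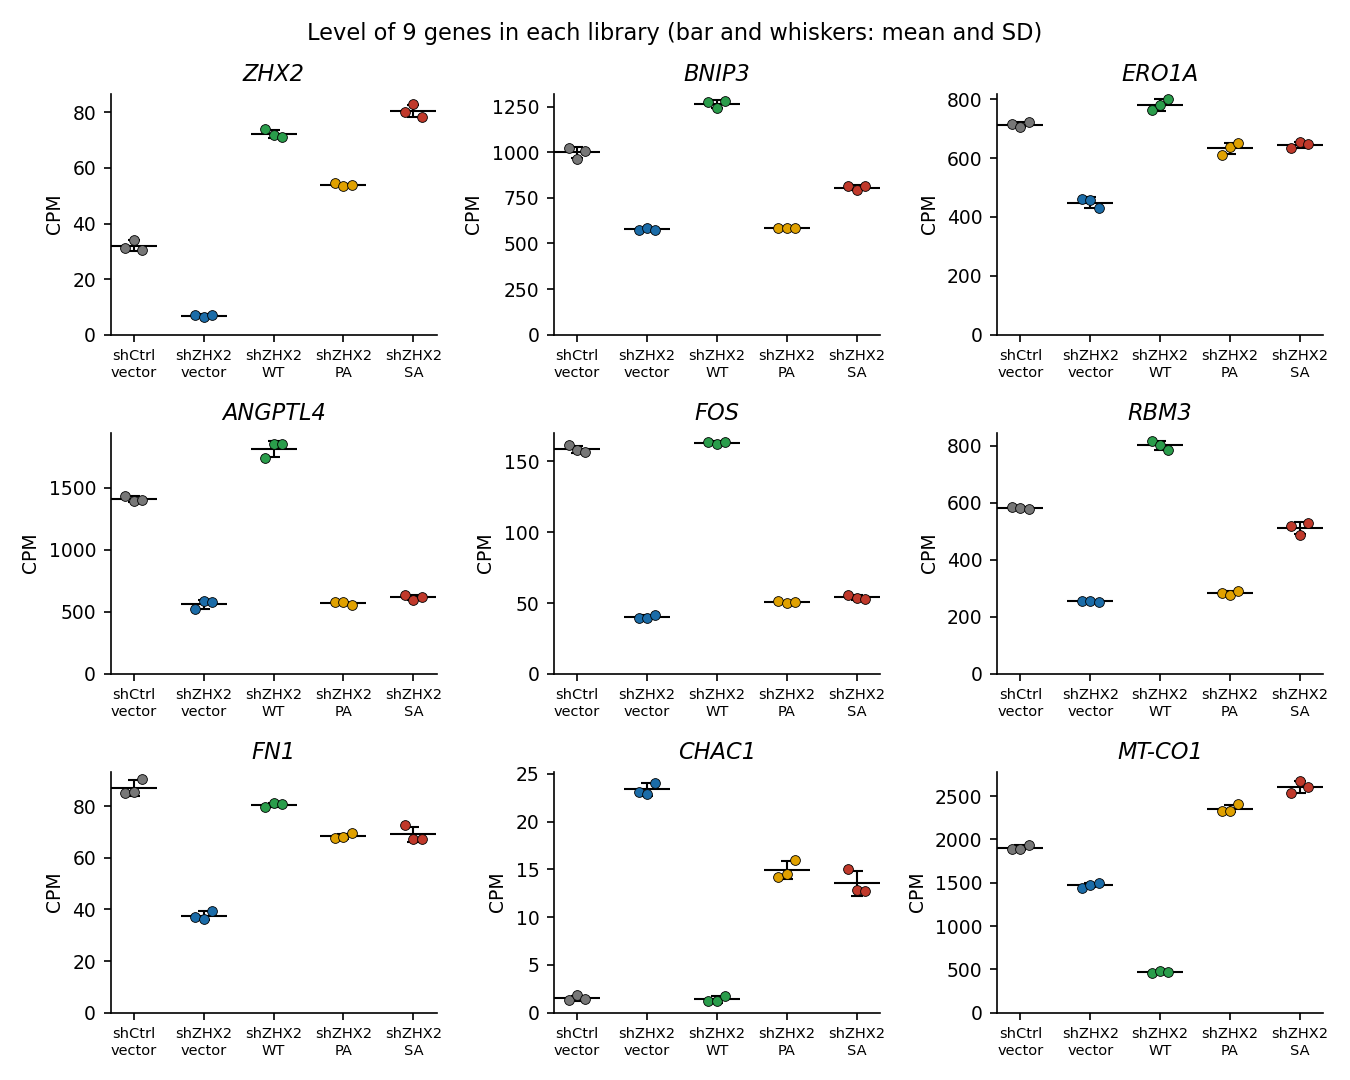
Levels in CPM of 9 genes in each of the 15 libraries, by group, with the mean and SD of 3 libraries; the y axes start at 0 and differ between panels, and the genes were chosen after their values were seen. SA lies between vector and WT at BNIP3, ERO1A, RBM3 and FN1, near the vector at ANGPTL4 and FOS, and opposite to WT relative to the vector at MT-CO1.

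Among the 12 largest rises by the naming rule was that of RBM3 (chromosome X, 48574449 to 48579066), an RNA-binding protein known from the response to cold. It had 254, 255 and 253 CPM with the vector and 519, 488 and 530 CPM with SA, a log2 fold change of 1.01 (SE 0.029, edgeR adjusted p = 1.96e-44). The SA libraries lay above PA (mean 284 CPM) and below shCtrl (582 CPM) and WT (803 CPM). With the offsets the RBM3 value was 0.86.

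Beside RBM3, the 12 rises were RGS22 (1.21), FGB (fibrinogen beta chain, 1.07), AOX1 (aldehyde oxidase, 1.01), MMP1 (interstitial collagenase, 0.97), CYB5R4 (0.95), CT45A10 (0.93), SCNN1G (gamma subunit of the ENaC sodium channel, 0.92), CETN3 (centrin, 0.91), ZNG1F (0.91), EIF4A1 (0.89) and CAPZA2 (capping protein of actin filaments, 0.88). CT45A10 and ZNG1F have near-identical copies among which reads can be split. RGS22, FGB, AOX1 and MMP1 were below 4 CPM in the SA libraries. CAPZA2 was measured more deeply, at 32.8, 32.0 and 28.1 CPM with the vector and 56.6, 55.5 and 57.8 CPM with SA (SE 0.046, edgeR adjusted p = 9.67e-28). SCNN1G had 14.0, 14.1 and 12.4 CPM with the vector and 25.9, 26.1 and 24.8 CPM with SA (SE 0.065, edgeR adjusted p = 6.63e-21). PA gave SCNN1G the same mean, 25.6 CPM, as SA did, and the difference between them was 0.00 (edgeR adjusted p = 0.999).

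The 12 falls were led by CBS (cystathionine beta-synthase, -1.04), MAPK8IP2 (-0.99), MYO7A (an unconventional myosin, -0.96) and EIF3C (-0.92). CBS had 74.0, 61.5 and 37.7 CPM with the vector and 31.7, 32.4 and 19.8 CPM with SA, so its vector libraries spread widely. Its call was lost without vector replicate 1, without vector replicate 2, without SA replicate 3, when only these groups were fitted and with the GC and length offsets. EIF3C lost its call without vector replicate 1 or 2, without SA replicate 2 or 3, and with no filter on low counts. CBS and EIF3C each have a near-identical copy that can take their reads. The remaining falls were C9orf152 (-0.91), DPF1 (-0.91), BRCA2 (a homologous recombination protein, -0.90), IFNL3 (a type III interferon with close paralogs, -0.89), HPS6 (-0.87), COL1A1 (collagen I, -0.86), MT2A (a metallothionein, -0.84) and SLC29A3 (-0.83). MT2A had 185, 191 and 192 CPM with the vector and 111.3, 95.01 and 110.3 CPM with SA (SE 0.044, edgeR adjusted p = 1.87e-13), while PA averaged 102 CPM and WT 150 CPM.

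Matrix and adhesion genes had both directions among their leaders. Of 31 genes linked to epithelial-mesenchymal transition and matrix, 19 were tested. With SA 8 were called higher and 4 lower (9 and 1 with the offsets), against 20.2% and 21.5% of all genes. FN1 (fibronectin) had 36.9, 36.3 and 39.5 CPM with the vector and 72.6, 67.1 and 67.4 CPM with SA, a log2 fold change of 0.88 (SE 0.042, edgeR adjusted p = 5.89e-30). With the offsets it was 0.78. PA averaged 68.4 CPM, WT 80.5 CPM and shCtrl 87.1 CPM for FN1. COL1A1 moved the other way, from 27.2, 29.8 and 27.4 CPM with the vector to 16.7, 15.6 and 14.2 CPM with SA.

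Transcripts of the mitochondrial genome, which encode subunits of the respiratory chain, rose with SA at 11 of 13 genes, against 20.2% of all genes tested, and none was called lower, against 21.5%, with a median of 0.63 (0.47 with the offsets, 9 higher and 0 lower). MT-CO1 had 1444, 1478 and 1501 CPM with the vector and 2539, 2672 and 2607 CPM with SA, a log2 fold change of 0.82 (SE 0.026, edgeR adjusted p = 5.75e-41). WT lay on the other side of the vector, at 468 CPM, and WT against vector called 0 of the 13 genes higher and 12 lower (35.1% and 34.6% of all genes). PA against vector called 10 higher and 0 lower (24.7% and 22.9%). MT-CO2 rose by 0.85 and MT-CO3 by 0.73. Mitochondrial transcripts made up 1.12% to 1.19% of counts with SA, 0.785% to 0.807% with the vector, 1.16% to 1.26% with PA and 0.312% to 0.333% with WT. Of 25 nuclear genes of oxidative phosphorylation, 10 rose and 5 fell against the vector, with a median of 0.05, and with the offsets 9 were higher and 8 lower with a median of 0. COX6C (0.55, from a mean of 1809 to 2656 CPM), UQCRB (0.36) and CYCS, which encodes cytochrome c (0.35), led them, at 0.32, 0.19 and 0.19 with the offsets. Against PA the same 25 genes gave 22 higher and 0 lower, beside 18.2% and 22.5% of all genes. The counts became 18 and 1 with library size scaling and 19 and 1 with the offsets.

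CHAC1, a glutathione-degrading enzyme induced by the transcription factor ATF4, fell with SA. ATF4 drives amino acid supply and the response to unfolded protein. CHAC1 had 23.1, 22.9 and 24.1 CPM with the vector and 15.03, 12.86 and 12.75 CPM with SA, a log2 fold change of -0.79 (SE 0.078, edgeR adjusted p = 3.84e-14). The SA libraries overlapped PA in range (mean 14.90 CPM) and stood far above WT (1.39 CPM) and shCtrl (1.53 CPM), the difference from WT being 3.29 (edgeR adjusted p = 1.73e-36). Its promoter, 300 bases in RefSeq (GRCh38.p14), is shown because it holds the element that ATF4 is known to bind, in capitals (TGATGNAA, searched on both strands).
CHAC1, chr15:40953221-40953520, plus strand: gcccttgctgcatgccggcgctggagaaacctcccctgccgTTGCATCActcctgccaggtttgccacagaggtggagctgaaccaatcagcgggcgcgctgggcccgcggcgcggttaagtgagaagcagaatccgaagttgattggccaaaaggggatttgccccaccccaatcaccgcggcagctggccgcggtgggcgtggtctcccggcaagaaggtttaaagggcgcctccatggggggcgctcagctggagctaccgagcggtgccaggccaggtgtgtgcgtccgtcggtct
This element was found in 5 of 32 promoters (15.6%) of 21 genes of the list and in 3.62% of all promoters. TRIB3, a pseudokinase of the same response, fell by 0.53, from 218 to 152 CPM (-0.33 with the offsets). DNAJB9, a chaperone of the endoplasmic reticulum, rose by 0.49, from 74.5 to 105 CPM (0.30 with the offsets). The list as a whole had no single direction against the vector. Of 23 genes, 8 were higher and 8 lower (3 and 9 with the offsets), beside 20.2% and 21.5% of all genes. Against WT, 19 were higher and 2 lower with SA (32.1% and 32% of all genes).

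Interferon-responsive genes were mostly lower with SA than with the vector, 15 of 25 lower and 5 higher, against 21.5% and 20.2% of all genes, with a median of -0.18 (12 lower and 4 higher with the offsets). ISG15, a ubiquitin-like modifier, had 1809, 1809 and 1889 CPM with the vector and 1496, 1376 and 1450 CPM with SA, a log2 fold change of -0.35 (SE 0.026, edgeR adjusted p = 3.83e-19). IFIT2, which restrains translation of viral RNA, fell by 0.66, from 19.5 to 12.3 CPM. IFI44 and IFIT1 went the other way by 0.69 and 0.45 (0.44 and 0.31 with the offsets). Against WT, 19 of the 25 were higher with SA and 2 lower (32.1% and 32% of all genes), and against shCtrl 22 were higher (33% of all genes) and 0 lower (33.7%). The levels of ISG15 lay in the order vector (1836 CPM), SA (1441), PA (1289), WT (930) and shCtrl (888). Of 20 p53 targets, 6 were higher and 7 lower against the vector (3 and 5 with the offsets), and 19 were higher and 1 lower against WT. Against the vector CCNG1 led at 0.54 (0.31 with the offsets), GADD45A was at 0.29 and BBC3 at -0.26, the last not called with the offsets.

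**Figure D5:**
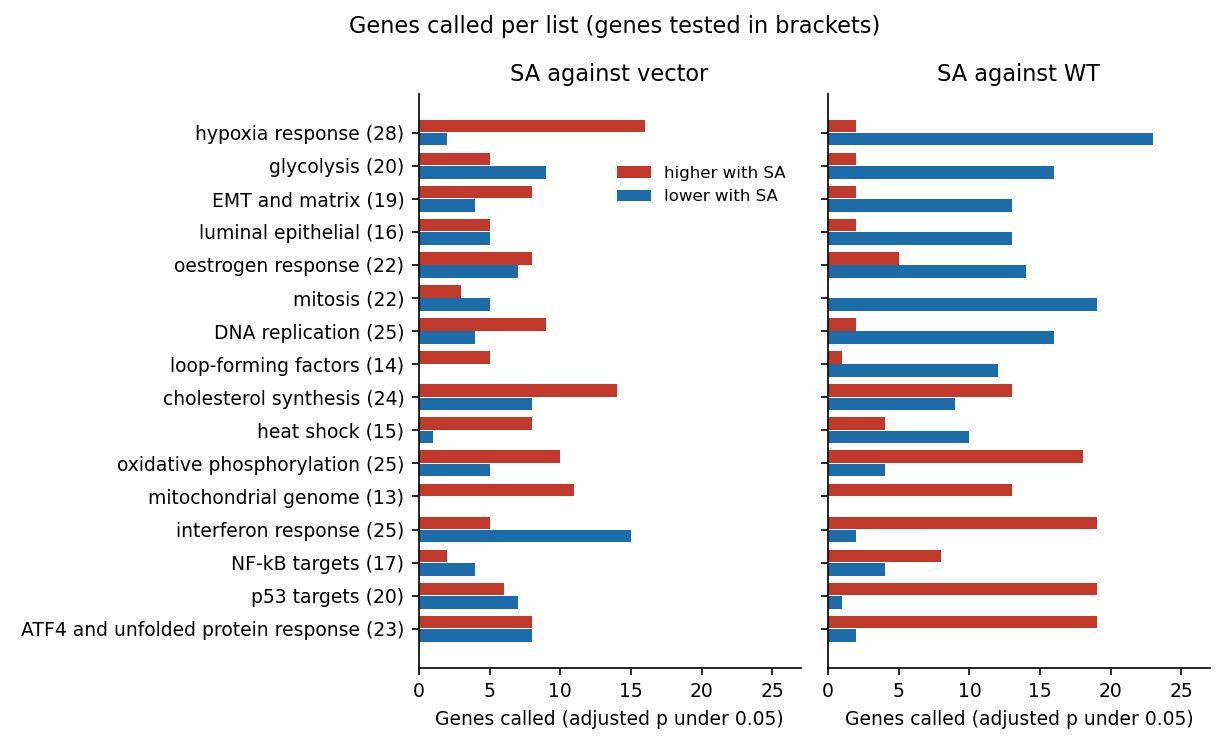
Number of genes per list called higher (red) or lower (blue) with SA, against vector on the left and against WT on the right; genes tested per list are in brackets, and the 16 lists plotted of 25 were chosen after their values were seen. Hypoxia genes are 16 higher and 2 lower on the left and 2 higher and 23 lower on the right.

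Genes of the oestrogen response showed both directions, 8 of 22 higher and 7 lower (10 and 2 with the offsets). Among all genes 20.2% were higher and 21.5% lower. ESR1, the oestrogen receptor gene, had 13.7, 15.9 and 13.7 CPM with the vector and 22.5, 20.4 and 21.5 CPM with SA, a log2 fold change of 0.57 (SE 0.066, edgeR adjusted p = 1.26e-11), against 43.5 CPM with WT. AREG, an epidermal growth factor receptor ligand, rose by 0.46 from 86.0 to 118 CPM (0.27 with the offsets) but averaged 391.7 CPM with WT. Luminal epithelial genes gave 5 higher and 5 lower of 16 (11 and 0 with the offsets), and AGR2, a disulfide isomerase, led the rises at 0.59 (0.38 with the offsets), followed by ESR1 and by the adhesion molecule EPCAM at 0.42 (133 to 179 CPM). PDZK1 rose by 0.56, a call lost without SA replicate 2 or with the offsets.

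Cell cycle genes were called in both directions against the vector. Of 25 DNA replication genes 9 were higher and 4 lower (4 and 3 with the offsets), and of 22 mitosis genes 3 were higher and 5 lower (1 and 6 with the offsets). Among all genes 20.2% were higher and 21.5% lower, and the mitosis counts lay near these shares. ORC6 (0.33) and RFC3 (0.26) were among the replication genes called higher, both without a call under the offsets, RFC3 also without SA replicate 1 or vector replicate 3. CDK1, the mitotic kinase, rose by 0.72 from 18.3 to 30.1 CPM, while PLK1, another mitotic kinase, fell by 0.38 and CDT1, a licensing factor, by 0.41. With the offsets these values were 0.45, -0.22 and -0.17. TTK rose by 0.44, a call lost without vector replicate 3, without SA replicate 1 or with the offsets. Against WT, 0 mitosis genes were higher and 19 lower (32.1% and 32% of all genes).

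Cholesterol synthesis genes were called at 22 of 24 members, 14 higher and 8 lower, against 20.2% and 21.5% of all genes. With the offsets 9 were higher and 1 lower. IDI1, an isomerase of the pathway, had 222, 217 and 208 CPM with the vector and 346, 364 and 349 CPM with SA, a log2 fold change of 0.71 (SE 0.029, edgeR adjusted p = 4.11e-34). WT averaged 361 CPM for IDI1, and the difference between SA and WT was -0.03 (edgeR adjusted p = 0.338). MSMO1, a sterol oxidase, rose by 0.45 and STARD4, a sterol carrier, by 0.41, at 0.22 and 0.16 with the offsets. Of 15 fatty acid synthesis genes tested, 7 were higher and 3 lower, against 20.2% and 21.5% of all genes, and 6 and 0 with the offsets. Leaving out 1 library gave 1 to 3 lower. SCD, the stearoyl-CoA desaturase, went from 3756 to 4445 CPM (0.24) and FADS2 from 21.5 to 17.8 CPM (-0.27), the latter not called with the offsets. ELOVL6 rose by 0.24, a call lost without SA replicate 1, vector replicate 2 or vector replicate 3, with DESeq2 and with the offsets. Heat shock genes gave 8 higher and 1 lower of 15 (10 and 2 with the offsets), with DNAJB4 (0.65), HSPA8 (0.47) and the mitochondrial chaperone HSPD1 (0.37) among them. With the offsets DNAJB4 was at 0.35 and HSPD1 at 0.22.

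Factors that form chromatin loops were followed because the series title names 3D chromatin. Of 14 tested genes, 5 were called higher and 0 lower with SA, against 20.2% and 21.5% of all genes, with a median of 0.09. Library size scaling gave 5 and 1, and the offsets gave 3 and 0. The largest change was 0.27, for the cohesin subunit RAD21 (102 to 123 CPM), which was at 0.09 with the offsets. STAG2, another cohesin subunit, rose by 0.25, a call lost with the offsets, and YY1 by 0.19 (0.18 with the offsets). Against WT, 1 of the 14 was higher and 12 lower (32.1% and 32% of all genes). Among 12 genes of oxygen sensing and the ZHX family, 3 were called higher and 1 lower (2 and 3 with the offsets), and 1 of the 3 was ZHX2 itself. HIF1AN, a hydroxylase that acts on HIF, was the 1 lower (-0.14) and lost its call without SA replicate 2 or vector replicate 3. HIF1A had 29.2 CPM with the vector and 32.7 CPM with SA; its call (0.16) was lost without SA replicate 1, SA replicate 2 or vector replicate 3, and its sign turned with the offsets (-0.08).

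The remaining lists were small or split, and beside each count stand 20.2% higher and 21.5% lower among all genes. Of 17 NF-kB targets 2 were higher (CXCL8 led at 0.56, a call lost with the offsets) and 4 lower, with RELB at -0.44 and NFKB2 at -0.41. These counts lay near the shares of all genes (20.2% and 21.5%), and with the offsets 0 were higher and 3 lower, RELB at -0.21 and NFKB2 at -0.18. Feedback genes of the ERK kinase pathway gave 3 higher and 3 lower of 14, near the same shares (2 and 1 with the offsets). ETV4 (-0.69), DUSP4 (-0.41) and EPHA2 (-0.27) led them, and each lost its call with the offsets. ETV4 also lost it without SA replicate 1, DUSP4 without SA replicate 3 or vector replicate 1, and EPHA2 without vector replicate 2. The DUSP4 call was lost as well with DESeq2 and with no filter on low counts. Immediate early genes gave 6 higher and 4 lower of 13 (6 and 2 with the offsets). EGR1, a zinc finger factor of this class, fell by 0.56 from 7.77 to 5.22 CPM, and KLF6 rose by 0.42 from 90.01 to 121 CPM. Cornified envelope and keratin genes gave 3 higher and 5 lower of 13, a split that turned to 4 and 1 with the offsets, with KRT15 at 0.40, EVPL at -0.24 and TGM1 at -0.23. EVPL had no call and a value of 0.05 with the offsets, and TGM1 lost its call with them. Aryl hydrocarbon receptor targets gave 4 higher and 0 lower of 9 (2 and 1 with the offsets), led by TIPARP (0.50, and 0.35 with the offsets). CYP1B1 (0.18) and ARNT (0.13) followed, and both lost their calls with the offsets, ARNT also without vector replicate 3. NRF2 targets gave 1 higher and 6 lower of 16 (3 and 8 with the offsets), among them OSGIN1 (-0.44) and HMOX1, the heme oxygenase, which went from 1451 to 1118 CPM (-0.38). With the offsets these were at -0.22 and -0.24. The 1 higher was AKR1B10, an aldo-keto reductase, at 0.612 CPM with the vector and 1.53 CPM with SA (1.32).

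The separate shRNA libraries allowed a wider question, namely how genes that need ZHX2 in hypoxia behaved with SA. In that table, 15.3% of 14903 genes were at least 2-fold higher in hypoxia than in normoxia, and 9.64% were at least 2-fold lower with shZHX2 in hypoxia. Both held for 451 genes, and 326 of them were tested here. With SA, 25 were called higher (7.67%) and 73 lower (22.4%), beside 20.2% and 21.5% of all genes, and 228 had no call. The direction of this split turned with the GC and length offsets, to 50 higher and 28 lower of 325. WT against the same vector libraries gave 123 higher (37.7%) and 92 lower (28.2%), beside 35.1% and 34.6% of all genes. SA against WT gave 66 higher (20.2%) and 133 lower (40.8%), beside 32.1% and 32% of all genes. Without the fold threshold, 43.1% of genes were called higher in hypoxia and 33.2% lower with shZHX2, and both held for 2916 genes. Of these 2637 were tested, and 289 were called higher (11%) and 1178 lower (44.7%) with SA, beside 20.2% and 21.5% of all genes. This wider class was not counted with the offsets.

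At FOS and ID2, members called higher with SA, SA stood far below WT. Over the 326 members tested, the median log2 fold change of SA against WT was -0.21 (quartiles -0.69 and 0.23). FOS, an immediate early transcription factor, had 39.2, 39.3 and 41.7 CPM with the vector and 55.8, 53.4 and 52.6 CPM with SA, a log2 fold change of 0.43 (SE 0.040, edgeR adjusted p = 5.67e-15). WT averaged 163 CPM and shCtrl 159 CPM, and PA 50.8 CPM. ID2, an inhibitor of helix-loop-helix factors, rose by 0.40 from 44.6 to 58.8 CPM, with 226 CPM for WT. Among called members with an average of at least 1 on the log2 CPM scale, the next largest rises were LTBP2 (0.42), the mucin MUC5B (0.42), S100A2 (0.40) and EFEMP2 (0.37). With the offsets LTBP2 was at 0.64 and MUC5B at 0.72. LTBP2 lost its call without SA replicate 3 or vector replicate 3, S100A2 without SA replicate 2, and EFEMP2 without any 1 of SA replicates 1 to 3 or vector replicates 2 and 3. EFEMP2 also lost it with DESeq2, library size scaling, no filter on low counts, a replicate block, or only the SA and vector groups fitted. By the same restriction the 3 largest of the falls were MYO7A, MT2A and ADGRE5 (-0.62).

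The members with the largest fitted changes, whatever their level, were mostly not called. The 6 largest rises were BIRC7 (1.24), DENND3-AS1 (0.88), RIPOR3 (0.79), MTUS2 (0.78), ENSG00000250644 (0.78) and SEPTIN4 (0.78). Of these DENND3-AS1 was called (edgeR adjusted p = 0.011), at 0.646 CPM with the vector and 1.19 CPM with SA, and it lost the call without SA replicate 1. The other 5 were not called with all libraries. BIRC7 was called without vector replicate 3, MTUS2 without vector replicate 1, and SEPTIN4 and ENSG00000250644 without vector replicate 2. The 3 largest falls were MIRLET7BHG (-1.54, edgeR adjusted p = 0.00334, from 0.691 to 0.237 CPM), SLC12A5-AS1 (-1.02, not called) and MYO7A (-0.96).

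A list of 21 genes named earlier for their response to shZHX2 in the other table was followed as well, and 13 were tested here. It was chosen on other libraries of this series, so it is not independent evidence of direction. Among all genes tested here, 20.2% were higher and 21.5% lower with SA. With SA 5 were called higher, C12orf76 (0.36; 0.24 with the offsets), MAN1A1 (0.17), CCN5 (0.16), ANGPTL4 (0.14) and CYP1A1 (0.10; 0.16 with the offsets), and 2 lower, SLC16A3 (-0.13) and ALDOC (-0.10), and with the offsets 4 were higher and 0 lower. MAN1A1 lost its call without SA replicate 2 or vector replicate 2 or 3, with DESeq2 and with the offsets. SLC16A3, the lactate exporter, lost its call without any of SA replicates 2 and 3 and vector replicates 2 and 3. The SLC16A3 call was also lost with DESeq2, no filter on low counts, or only the SA and vector groups fitted. SLC16A3 and ALDOC were above the vector with the offsets, at 0.13 and 0.01, with no call. CCN5, a matricellular protein, had 256 CPM with the vector, 286 with SA and 585 with WT. ISM2, PTPRN, SPAG4, DPYSL4, CTNND2 and ACTL8 were not called, and NIPAL4, IVL, LINGO4, PLLP, FLNC, DUSP6, KISS1R and PRTN3 were too low to test. CTNND2 was called higher without vector replicate 1, and DPYSL4 lower without SA replicate 1 or 2.

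Seen from the other side, 2778 genes higher with SA were also tested in the shRNA table, where 38.4% of them were higher and 31.9% lower with shZHX2. Of 3024 genes lower with SA, 33.4% were higher and 48.8% lower with shZHX2, beside 35.1% and 34.1% of all 13060 genes in both tables and 33.6% and 33.2% of those tested in the shRNA table. Spearman's rho between the log2 fold changes over those genes was 0.08, a description across genes. Both sets are calls made without the GC and length offsets, which kept 1464 of 2892 higher and 1359 of 3072 lower calls. The shares were not recounted with the offsets.

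The largest differences between SA and WT included transcripts at which SA and the vector stood close. The mitochondrial tRNA genes MT-TN (6.31) and MT-TC (5.51), the heat shock gene HSPA6 (3.34) and CHAC1 (3.29) were the 4 largest rises of SA over WT by the naming rule. MT-TN had 55.2 CPM with the vector, 57.4 CPM with SA and 0.702 CPM with WT. Among the largest falls by that rule were DKK1, a Wnt antagonist (-3.55), LDLRAD4 (-2.83) and MUCL1 (-2.33). DKK1 had 0.909, 1.18 and 1.63 CPM with the vector, 2.00, 1.61 and 1.42 CPM with SA, and a mean of 19.7 CPM with WT. The vector and SA libraries overlapped for DKK1 (edgeR adjusted p = 0.098), and it was called against the vector without vector replicate 3.

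By the naming rule, which asks for an average of at least 1 on the log2 CPM scale and no overlap, the largest differences between SA and PA were led by RN7SL1, GSTM3, EEF1B2 and LINC01588 in the higher direction. RN7SL1, the signal recognition particle RNA, had 10.2, 37.4 and 13.8 CPM in the SA libraries, so SA replicate 2 alone was far above the PA mean of 5.44 CPM (1.89, edgeR adjusted p = 0.012). It has near-identical copies. GSTM3, a glutathione transferase, had 84.2, 72.1 and 81.4 CPM with SA and a PA mean of 38.9 CPM (1.03, edgeR adjusted p = 5.20e-21). EEF1B2, a translation elongation factor, had 403, 384 and 405 CPM with SA and a PA mean of 201 CPM (0.99, edgeR adjusted p = 2.43e-43); the vector mean lay between, at 286 CPM. LINC01588 differed by 0.94. By the same rule the largest falls of SA against PA were ZFP41 (-0.85), the kinetochore gene CENPF (-0.84), ENC1 (-0.77) and ZNF562 (-0.69) and all were low, the highest group mean being 6.78 CPM, for ENC1 with PA.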

How the data were processed

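RNA of T47D cells was sequenced as poly(A)-selected, paired-end libraries, per the labels' protocols. The deposited values are raw counts per gene. The submitters' processing notes name FastQC, HISAT2, featureCounts, DESeq2 and genome build hg38; their settings, the annotation and the use of strand were not given in the sources used here, so antisense and overlapping genes cannot be told apart. The 15 rescue libraries (5 groups of 3) were fitted together in edgeR 4.0.16 with limma 3.58.1 (R 4.3.3): filterByExpr, TMM scaling, robust dispersion, quasi-likelihood F test and Benjamini-Hochberg adjustment over all genes tested, with a call at an adjusted p under 0.05. Standard errors were taken as the absolute log2 fold change over the root of the F statistic. The 9 shRNA libraries were fitted alone. The scripts were tested on simulated data. Positions, GC content and lengths came from GENCODE on GRCh38 for 58437 genes.

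The members and lists were chosen with earlier results of these data known. Named genes were ZHX2, the 12 largest rises and falls against the vector (called, average log2 CPM of at least 1, proper symbol, no overlap), 4 each against WT and PA, up to 3 leading members per list, and the leading members of the ZHX2-dependent hypoxia class. Other genes, including called class members at an average log2 CPM of at least 1, were named after their values were seen. DESeq2 1.42.0, other scalings, no filter, GC and length offsets, a replicate block and leaving out each library were the alternatives. Libraries of 1 group differed by more than sampling noise (chi-square per degree of freedom 2.33 to 3.38 between SA libraries). The rescue libraries held 18056398 to 24760885 counts. Some genes that the naming rule gives are not reported here.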

Additional observations from a re-analysis of the deposited data

How the results depend on the processing

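With GC and length offsets, the lower calls of SA against vector fell to 1888 and those at 2-fold to 36 higher and 21 lower; SA against PA then gave 1813 lower calls, 55.4% of its calls being higher in place of 44.6%. The hypoxia-induced, ZHX2-dependent genes turned from 25 higher and 73 lower of 326 to 50 higher and 28 lower of 325 with these offsets. With no fold threshold of membership, 289 of 2637 genes were higher and 1178 lower, the same direction as without offsets at 2-fold. That wider class was not counted with the offsets. Among the named genes followed, HIF1A (-0.075), EVPL (0.054), SLC16A3 (0.125) and ALDOC (0.013) changed sign with the offsets, none with a call. Among all genes, 22 higher and 92 lower calls of SA against vector were called in the opposite direction. With library size only, SA against PA gave 1453 higher and 6082 lower, or 19.3% higher. Fitting only the SA and vector groups left 40 genes higher by at least 2-fold, and DESeq2 left 27 higher and 4 lower. The cause of these changes was not tested. A replicate block gave 2874 higher and 3058 lower against the vector. Same-numbered SA and other libraries correlated at -0.045 to 0.02 in their deviations from group means, so no pairing by number was seen. With 3 libraries per group, a weak effect shared by same-numbered libraries could go unseen. Leaving out 1 library at a time gave 2476 to 2757 higher and 2779 to 2906 lower calls against the vector, 67 to 84 and 34 to 44 at 2-fold, and 3.49 to 3.60 for ZHX2. Of 132 named genes followed, 38 changed call or direction in at least 1 setting, 24 of them with the offsets. Of the 94 genes called at least 2-fold, 88 had an average under 1 on the log2 CPM scale.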
